A study of Mus musculus with 2 samples.

Results

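The 4 genes described here, Meg3, Rian, Mirg and Dlk1, belong to the imprinted Dlk1-Dio3 domain of mouse chromosome 12, and they are 4 of the 55487 genes in the deposited count matrix. They were chosen by their measured UMI levels across the marker-gated cell types and the strains of these same cells, high in muscle-marker cells and in BALB/c, so their levels by cell type and by strain are given as a description and carry no test. The study profiled thymic cells of 6-week-old female mice in 1 droplet capture of 3′ ends, pooled from 2 NOD, 2 BALB/c and 2 C57BL/6 (B6) mice, 6 animals in all. All groups were inbred and untreated as far as the labels say, and all shared the same sort: thymic cells were depleted of leukocytes bearing CD45, and medullary thymic epithelial cells (mTEC) negative for podoplanin and CD104, with little MHC class II, were collected. Each mouse carried its own hashtag antibody, and the mouse was the replicate. The labels give both NOD hashtags the same replicate number, and they were kept as 2 mice because the design describes 2 animals per strain.

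In imprinted genes a cell transcribes the copy inherited from 1 parent and silences the other. In the Dlk1-Dio3 domain the maternal copy makes the noncoding RNAs Meg3, Rian and Mirg, which also host small RNAs, and the paternal copy makes the protein-coding genes Dlk1, Rtl1 and Dio3. Meg3 is a long noncoding RNA of the nucleus, Rian hosts many small nucleolar RNAs, and Mirg hosts microRNAs. Dlk1 is a transmembrane protein related to the Notch ligands that restrains the differentiation of fat precursors and is made in developing muscle. Mimetic cells are mTEC that switch on programs of other tissues, such as tuft, muscle or microfold cells, and so display the proteins of those tissues to developing T cells. The counts do not separate the parental copies, so no value below measures imprinting.

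On mm10, by GENCODE M21, Dlk1 lies at chr12:109452823-109463336, Meg3 at chr12:109541001-109571726, Rian at chr12:109603940-109661716 and Mirg at chr12:109729764-109749460, all on the plus strand. From the start of Dlk1 to the end of Mirg the cluster spans 296.6 kb, with 77.7 kb between the end of Dlk1 and the start of Meg3. Dlk1 is annotated as protein coding with up to 6 exons in a transcript, and Meg3 as a lincRNA with up to 10. The promoter windows of the 2 genes with the most UMIs (captured molecules) are shown because they sit at the 2 ends of the Dlk1 to Meg3 interval. The windows are RefSeq sequence (GRCm38.p6, plus strand, 250 bases before to 50 after the annotated start), with matches to TGACGTCA, TATAAA and CCAAT on either strand in capitals and overlapping matches merged.
Meg3 promoter, chr12:109540746-109541045: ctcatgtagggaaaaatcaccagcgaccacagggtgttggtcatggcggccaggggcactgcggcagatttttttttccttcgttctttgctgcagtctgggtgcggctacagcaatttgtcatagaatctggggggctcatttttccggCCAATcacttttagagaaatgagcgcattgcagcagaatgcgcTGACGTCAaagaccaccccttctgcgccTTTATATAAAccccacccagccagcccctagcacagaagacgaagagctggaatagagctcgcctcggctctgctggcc
Dlk1 promoter, chr12:109452573-109452872: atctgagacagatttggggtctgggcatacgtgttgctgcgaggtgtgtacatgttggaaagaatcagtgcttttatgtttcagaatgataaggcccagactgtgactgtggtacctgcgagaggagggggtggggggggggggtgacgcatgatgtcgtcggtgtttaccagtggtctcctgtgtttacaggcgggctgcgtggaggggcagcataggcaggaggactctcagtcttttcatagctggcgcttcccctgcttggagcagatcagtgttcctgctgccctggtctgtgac

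The Meg3 window holds 1 match to TGACGTCA, the cyclic AMP response element, 57 bases before the start. It also holds 2 overlapping matches to TATAAA and 1 to CCAAT, and the Dlk1 window holds none of the 3. Among all 32851 promoter windows of the same length, 1.79% hold TGACGTCA, 13.6% TATAAA and 37.4% CCAAT. The E-box letters CANNTG, which myogenic factors such as myogenin read, are in 72.3% of the windows and in neither of these 2. The second annotated Meg3 start and the Rian and Mirg windows hold 1 CANNTG match each. These matches describe the letters only.

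The region from Dlk1 to Dio3 also holds 58 microRNA hairpins in RefSeq, of which 1 lies in Meg3, 3 in Rian, 14 in Mirg and 6 on the strand opposite Rtl1. The region holds 114 mature microRNAs with 104 different seeds, including those of Mir1906-1, Mir666 and Mir544, whose hairpins are not among the 58. Of these, miR-1906 (chr12:109544588-109544609) also lies within Meg3. A mature microRNA of each noncoding host is shown because these small RNAs are products of the same transcripts, with the seed, bases 2 to 8, in capitals and GRCm38.p6 positions on the plus strand.
miR-770-5p, in Meg3, chr12:109563710-109563731: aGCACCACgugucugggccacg
miR-370-3p, in Rian, chr12:109618305-109618326: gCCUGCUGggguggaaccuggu
miR-410-3p, in Mirg, chr12:109743764-109743784: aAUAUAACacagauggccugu
Their seeds differ. Mature microRNAs are not captured by this assay: 90 microRNA and small nucleolar RNA features of the region were in the matrix, and they held 0 UMIs.

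The matrix held 3447 barcodes, of which 2527 had at least 500 genes and under 15% mitochondrial UMIs, and 1705 of these were assigned to a mouse (at least 80% of at least 100 hashtag UMIs). Assigned cells numbered 120 and 122 for NOD, 412 and 595 for BALB/c, and 215 and 241 for B6, with 2369670 to 10253848 UMIs per mouse. Cells were given a cell type by marker gates: each cell went to the marker list with the highest z-score, if that was at least 1 with at least 3 markers detected (2 or 1 for short lists). Of the assigned cells, 1563 carried at least 3 of 8 epithelial markers and were not in a gate of another lineage. Leukocyte gates were present after the CD45 depletion, with 196 myeloid or dendritic cells and 120 thymocytes among the passing barcodes. Among passing cells just outside the hashtag threshold (70 to 80% on the leading hashtag) 109 cells held 106 Meg3 UMIs, and just inside it (80 to 90%) 200 cells held 86. Of the Meg3 UMIs of passing cells, 802 were in the 822 cells that no mouse was assigned. No doublet caller was run, and the hashtag threshold removes only droplets that mix mice. Levels are UMIs per 1000000 UMIs of the same cells (CPM), and intervals are exact 95% intervals that cover counting error only. The counts are of 3′ ends, so levels are compared across cells for 1 gene, not between genes.

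All 4 genes were rare and concentrated in a few cells. Meg3 had 2498 UMIs in 90 of the 2527 passing cells, Rian 450 in 56, Mirg 52 in 24 and Dlk1 987 in 61. The 10 cells with most Meg3 held 60.8% of its UMIs, and the highest single cell held 444 of them. For Rian, Mirg and Dlk1 the 10 highest cells held 72.7%, 73.1% and 69.9%. A level in a group of cells therefore rests on few cells, and the largest cell is given beside each level where it matters.

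The muscle gate, built from skeletal muscle genes such as Myog (myogenin), Ttn, Actc1 and Ckm, held 43 cells and most of these UMIs. It held 2065 Meg3 UMIs, 82.7% of all, at 1357 CPM (1299 to 1417), in 28 of 43 cells (65.1%, interval 49.1 to 79.0%). Rian reached 259 CPM in 24 cells, Dlk1 416 CPM in 14 and Mirg 11.2 CPM in 8. Without its highest cell the Meg3 level of the gate was 1082 CPM. The cells carried the gate's own markers, with Myog in 43 of 43 and Ttn in 83.7%, and all had the epithelial genes Epcam and Krt8. They also carried tuft markers: 36 of the 43 had at least 3 of the 12. Their median depth was 32384 UMIs against 14333 in tuft cells, and the part of depth or of mixed droplets in these levels was not tested. Thinned to 5000 UMIs per cell, 60.5% of muscle-gate cells still had a Meg3 UMI.

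Meg3 levels were far lower in the other 15 gates with at least 20 cells. The neuroendocrine gate came next at 40.6 CPM, but 87 of its 88 Meg3 UMIs lay in 1 cell, and the level without that cell was 0.466 CPM. The tuft gate had 26.0 CPM (22.9 to 29.4), with 258 UMIs in 31 of 583 cells and 18.2 CPM without its highest cell. Under the gate scoring tried first, an alternative added after seeing the data, the tuft gate held 541 Meg3 UMIs at 43.2 CPM and the muscle gate 25 cells with 70.2% of all Meg3 UMIs. The immature mTEC gate had 18.9 CPM, with 36 of 40 UMIs in 1 cell and 1.90 CPM without it. From the thymocyte gate (3.86 CPM) downwards the intervals of neighbours in the order overlapped, and the microfold gate had 0 UMIs, which allows up to 2.57 CPM at 3 counts. As a background, leukocytes gave 3 Meg3-positive cells of 120 thymocytes (2.5%, interval 0.519 to 7.13%, median depth 4222 UMIs) and 3 of 196 myeloid or dendritic cells (1.53%, interval 0.317 to 4.41%, median depth 31946 UMIs). Epcam UMIs were in 8.33% of the thymocyte gate and in 94.4% of the myeloid or dendritic gate, and the part of free RNA or mixed droplets was not tested.

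Rian followed the same order at the top. It was highest in the muscle gate, next in the neuroendocrine gate at 7.39 CPM, with 15 of 16 UMIs in 1 cell, and at most 1.57 CPM elsewhere, with no UMI in 5 of 16 gates. Mirg was highest in the muscle gate at 11.2 CPM (6.51 to 17.9) and next in the Aire-stage gate at 5.88 CPM (3.69 to 8.91), with overlapping intervals. In the Aire-stage gate 15 of its 22 UMIs came from 1 cell. Mirg was at 0 in 9 gates.

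The order of Dlk1 below the muscle gate was different. After the muscle gate it was highest in the Aire-stage gate (22.2 CPM, 10 of 113 cells), the tuft gate (17.4 CPM, 17 of 583 cells) and the proliferating gate (13.5 CPM, 4 of 93 cells), whose intervals overlapped with their neighbours. Their highest cells held 32 of 83, 55 of 173 and 22 of 48 Dlk1 UMIs, and without those cells the levels were 13.8, 11.9 and 7.41 CPM. The Aire-stage gate is the step at which mTEC express the regulator Aire. Only 1 of its 113 cells had a Meg3 UMI, and that cell was not among the 10 with Dlk1. Dlk1 was at 0 in the keratinocyte, collagen VI, neuroendocrine and Acta2/Tagln gates.

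**Figure D1:**
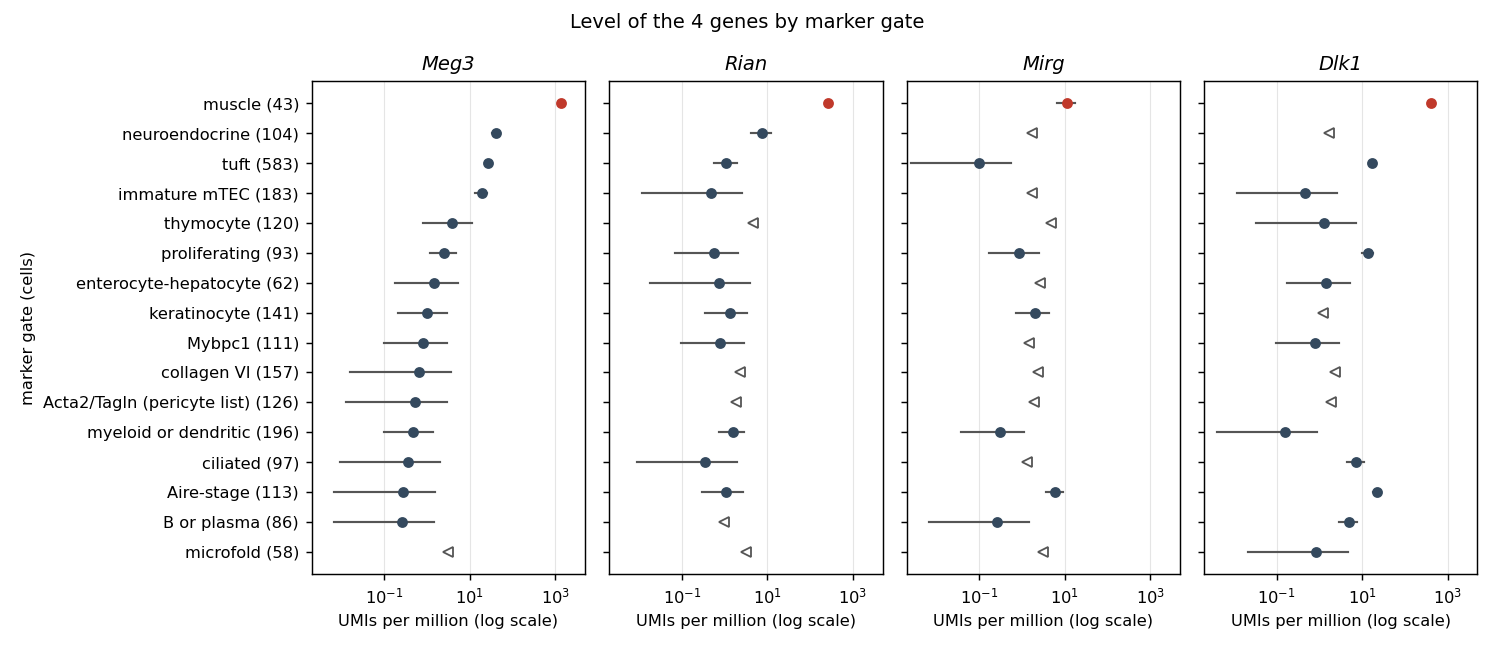
Level of each gene in the 16 marker gates with at least 20 cells, in CPM on a log axis, with gates in the order of Meg3 and the cells per gate in brackets. Points are levels over all passing cells of a gate, lines are exact 95% counting intervals, and open triangles mark the upper limit of gates with 0 UMIs. The muscle gate (red) is highest for all 4 genes, with Meg3 at 1357 CPM and an interval for Mirg that overlaps the Aire-stage gate's, and Dlk1 is at 22.2 CPM in the Aire-stage gate and 17.4 CPM in the tuft gate, with overlapping intervals.

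Within the muscle gate the genes were not all on in every cell. The 28 cells with Meg3 had 1 to 444 UMIs of it (median 51.5), and 15 cells had none. The median depth was 33912 UMIs in the cells with Meg3, against 30061 in those without. Cells with Meg3 had a median of 6 muscle markers and 142 Myog UMIs, against 5 markers and 49 Myog UMIs in the cells without it. The pooled Meg3 level was 504 CPM in the 13 cells with 3 to 4 muscle markers, 1073 CPM in the 15 with 5 to 6 and 2226 CPM in the 15 with 7 to 10. The marker count also set which cells entered the gate, so this order is a description. The cell with most Meg3 is in the last group and was assigned to no mouse.

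Meg3 and Rian were found largely in the same muscle-gate cells. Of the 24 muscle-gate cells with Rian, 22 had Meg3, and all 8 with Mirg had both Meg3 and Rian. Across the 43 cells, which share a library and include cells at 0, Meg3 and Rian had Pearson's r of 0.86 on the log scale. Meg3 and Mirg, which had few UMIs, had r of 0.49, as did Meg3 and Dlk1. In the 20 cells with at least 20 Meg3 UMIs there were 0 to 33.0 Rian UMIs per 100 Meg3 UMIs, with a median of 18.2. Meg3 and total UMIs had r of 0.10, and Meg3 and Myog 0.33.

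Dlk1 appeared in fewer muscle-gate cells, and always beside Meg3. All 14 Dlk1-positive cells had Meg3, and the other 14 Meg3-positive cells had no Dlk1. The Dlk1-positive cells had 1 to 167 UMIs of it, with a median of 28.5. Their median depth was 32322 UMIs, against 33788 in the muscle-gate cells without Dlk1. The cell with 444 Meg3 UMIs and 102 Rian UMIs had 0 Dlk1 UMIs, and the cell with 167 Dlk1 UMIs had 16 Meg3 UMIs.

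**Figure D2:**
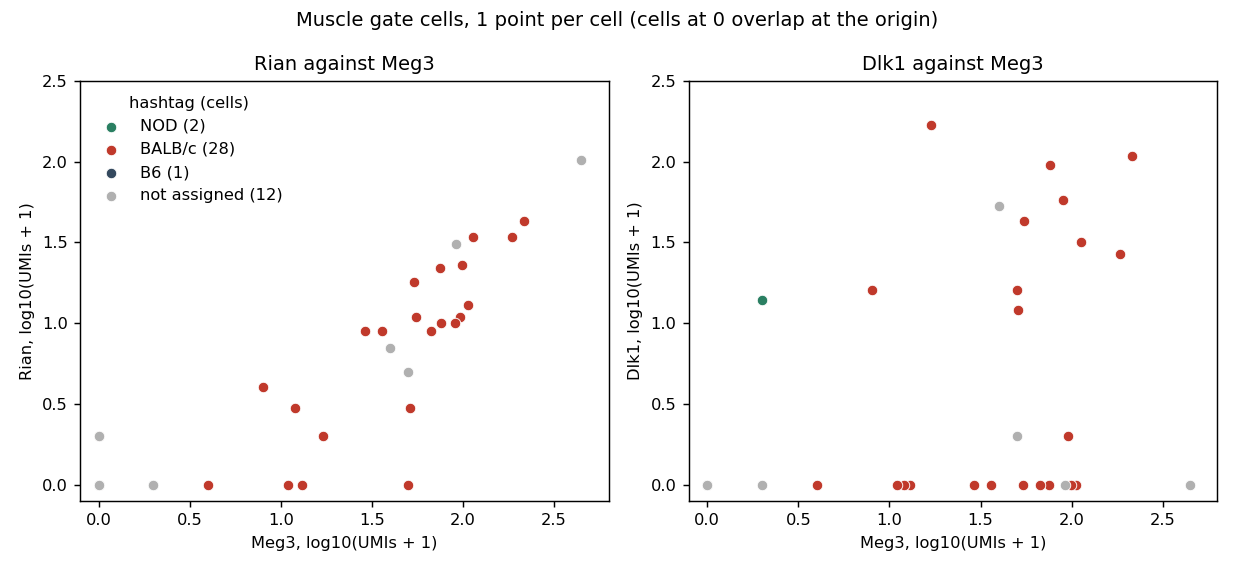
UMIs of Rian (left) and Dlk1 (right) against Meg3 in the 43 muscle-gate cells, both axes as log10(UMIs + 1), 1 point per cell, coloured by the strain of the hashtag. Rian lies along a line with Meg3, while 14 of the 28 Meg3-positive cells sit at 0 for Dlk1. The NOD 2 cell and the B6 cell are at the origin.

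Most Meg3-positive cells of the tuft gate had Myog. Of the 139 tuft-gate cells with a Myog UMI, 23 had Meg3 (16.5%, 73.7 CPM). Of the 444 without Myog, 8 had it (1.80%, 2.12 CPM), a share inside the intervals of both leukocyte gates. The Myog-positive cells were deeper (median 23234 UMIs against 11318). After thinning to 5000 UMIs the shares were 10.2% and 0.995%. Dlk1 was in 10 of the Myog-positive tuft cells (7.19%) and in 7 without Myog (1.58%), and 10 of the 17 Dlk1-positive tuft cells had Meg3. Rian was scarcer here than in the muscle gate relative to Meg3, with 11 UMIs in 11 cells beside 258 Meg3 UMIs.

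Over all passing cells, 40 had at least 5 Meg3 UMIs, and 35 of them had Myog. Of these 35, 25 were in the muscle gate, which has Myog among its own markers. Outside that gate 9.90% of passing cells had Myog. Of the 29 passing cells with at least 5 Dlk1 UMIs, 12 had no Meg3. These 12 comprised 6 cells of the Aire-stage gate, 2 tuft, 2 proliferating, 1 ciliated and 1 of the B or plasma gate, and none was in the muscle gate. The minimum of 5 was chosen after the values were seen.

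The neighbours of these genes in the domain followed the muscle gate to different degrees. Rtl1, the retrotransposon-derived paternal gene, had 21 UMIs, 6 of them in the muscle gate and 10 in 3 Aire-stage cells. Dio3, a deiodinase of thyroid hormone, had 0 UMIs and its opposite transcript Dio3os 1. Begain, which lies before Dlk1, had 138 UMIs, 17 in the muscle gate and 93 in the tuft gate. The level of Rtl1 was 3.94 CPM in the muscle gate and 2.67 CPM in the Aire-stage gate, and that of Begain 11.2 CPM in the muscle gate and 9.37 CPM in the tuft gate, on counts too small to order them. A pair of transcripts without an assigned role between Rian and Mirg was chosen after their values were seen: Gm37899 had 33 of 34 UMIs in the muscle gate, and B830012L14Rik 70 of 103. Of the 22 genes listed as flanks of the domain, 2 were highest in the muscle gate, Wdr25 at 30.2 CPM and Ckb, the brain creatine kinase, at 803 CPM.

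**Figure D3:**
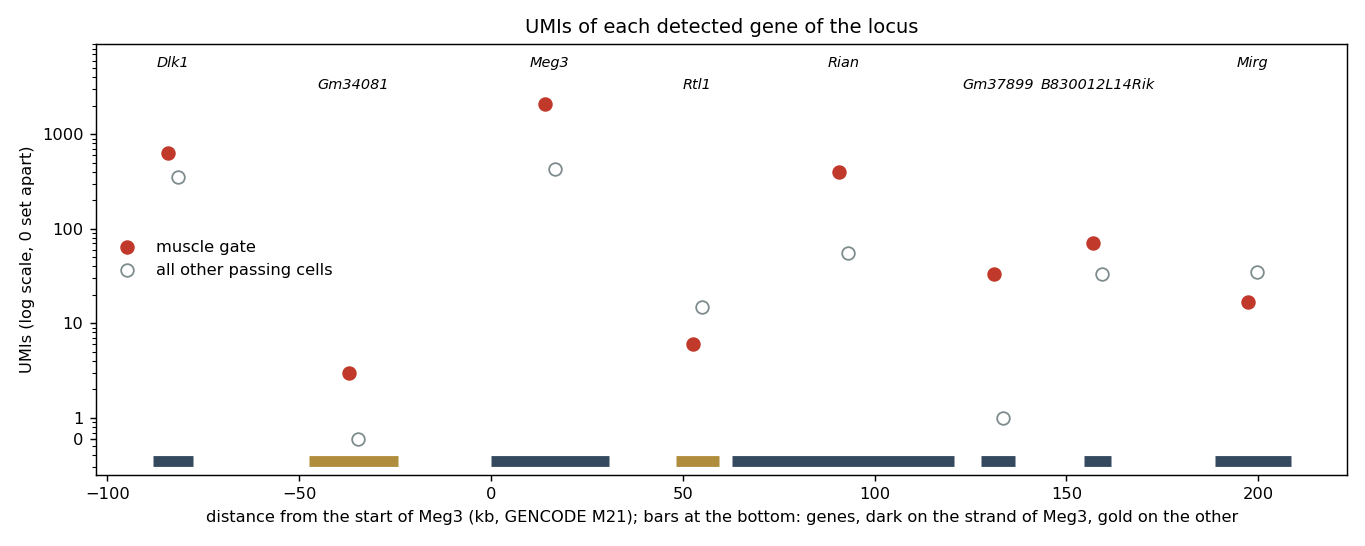
UMIs of each detected gene of the Dlk1 to Mirg interval in the muscle gate (red) and in all other passing cells (open), on a log axis with 0 set apart, against distance from the Meg3 start in kb. Bars at the bottom are the genes. Meg3 has 2065 UMIs in the muscle gate, and Gm37899 has 33 there.

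Genes of other imprinted domains were a mixed group in the muscle gate. Of 49 such genes with at least 20 UMIs, 8 had their highest gate there (16.3%), against 1427 of 21307 genes of any kind (6.70%). They were Cdkn1c, Gnas, Airn, Nnat, Igf2r, Blcap, Mcts2 and Mest. Cdkn1c, the cyclin-dependent kinase inhibitor p57, reached 6156 CPM in the muscle gate in 38 of 43 cells, against 64.5 CPM in the tuft gate, and had r of 0.57 with Meg3 across the muscle-gate cells. Mest, a paternally expressed gene, had all its 53 muscle-gate UMIs in 1 cell. The median log2 ratio of the list, muscle gate over the cells outside the muscle and tuft gates, was 0.15 against -0.07 for all genes. Of the imprinted gene network 4 of 12 genes were highest in the muscle gate, and of the Notch list 3 of 33. For Polycomb complex 2 genes it was 1 of 12, for imprint keepers 0 of 16 and for other long noncoding RNAs 0 of 11.

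Of 12889 genes with at least 20 CPM in a gate, leaving out marker lists, those with the pattern most like Meg3 over the 16 gates were Art1, Gm42517, Sag, Rnd2, Neb, Galnt9, Podxl2, Chrnd, Atp1b2 and Klhl41. Their Pearson's r with Meg3, on log2(CPM + 10), ran from 0.94 to 0.97, and Rian had 0.95, Dlk1 0.84 and Mirg 0.70. Neb (nebulin) and Klhl41 are sarcomere genes, Chrnd is a subunit of the muscle acetylcholine receptor, and Sag is arrestin of the retina. Without the muscle gate the r of the 10 genes was 0.64 to 0.81 and that of Rian 0.68, while that of Dlk1 was 0.05 and that of Mirg -0.22. Single cells weigh on these values. In the neuroendocrine gate 87 of 88 Meg3 UMIs and 15 of 16 Rian UMIs lay in 1 cell for each gene. In the immature mTEC gate 36 of 40 Meg3 UMIs lay in 1 cell.

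Between strains, the 4 genes were compared in the epithelial cells of each mouse. Summed over these cells, Meg3 had 3 UMIs in NOD 1 and 0 in NOD 2, 711 in BALB/c 1 and 968 in BALB/c 2, and 4 in B6 1 and 6 in B6 2. In the same order of mice the levels were 1.26 and 0 CPM (NOD), 109 and 102 CPM (BALB/c) and 1.08 and 1.59 CPM (B6). Both BALB/c mice were far above all others, and the NOD and B6 ranges overlapped. The means were 0.632 ± 0.893, 106 ± 5.52 and 1.33 ± 0.366 CPM in NOD, BALB/c and B6 mice (SD, n = 2 mice each). Such sums mix the number of cells of a type with the RNA per cell, which cannot be told apart in them.

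The log2 differences for Meg3 fitted by edgeR were 6.25 ± 0.37 for BALB/c over B6, -0.96 ± 0.84 for NOD over B6 and -7.21 ± 0.45 for NOD over BALB/c. For all edgeR differences here and below, the ± value is the difference divided by the square root of the quasi-likelihood F. It is an approximate SE that edgeR does not report, and it can understate the error where a strain has very few UMIs. Of the 4 genes 3 passed its filter on low counts, and Mirg did not. In the same fit of 15645 genes at an adjusted p of 0.05, 5.15% of genes were called higher and 5.04% lower in BALB/c over B6. For NOD over B6 13.3% were called higher and 13.1% lower, and for NOD over BALB/c 3.87% and 4.71%. Because Meg3 was chosen with these values known, nothing is read from that background. The contrasts share mice, and with 2 mice a strain the fit had 3 residual degrees of freedom. Without NOD 1 the NOD over B6 difference was -5.81, and without NOD 2 it was 0.022, so its sign rests on single mice. NOD 2 had 0 Meg3 UMIs, which allows up to 1.28 CPM at 3 counts, between the 1.08 and 1.59 CPM of the B6 mice. The size of -5.81 therefore reflects a count of 0 in 1 mouse, not a measured level. From counts alone, the BALB/c level was 78.5 times that of B6 (42.6 to 164).

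Meg3 was detected in 3 of 221 epithelial cells in NOD (1.36%), 54 of 924 in BALB/c (5.84%) and 7 of 418 in B6 (1.67%). The NOD and B6 shares lie inside the intervals of both leukocyte gates, which rest on 3 positive cells each at depths that are not matched to the epithelium. In the B6 tuft cells the level was 3.46 CPM (1.49 to 6.82), against 0.471 CPM (0.0971 to 1.38) in the myeloid or dendritic gate and 3.86 CPM (0.796 to 11.3) in the thymocyte gate.

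Of the 43 muscle-gate cells, 31 were assigned to a mouse. The muscle gate was largest in BALB/c, with 28 of 1007 assigned cells (10 and 18), against 2 of 242 in NOD and 1 of 456 in B6. In it the NOD cells had 1 and 0 Meg3 UMIs, BALB/c 1 had 1742 CPM and BALB/c 2 had 1282 CPM (1512 ± 325, SD, n = 2), and the B6 cell had 0 UMIs. With 3 cells in NOD and B6 together, the level per muscle-gate cell was not compared between strains. Without the muscle gate the epithelial Meg3 levels were 0.854 and 0 CPM (NOD), 8.34 and 21.1 CPM (BALB/c) and 1.08 and 1.59 CPM (B6). The BALB/c over B6 difference was then 3.42 ± 0.70 log2, against 6.25 with the gate, and NOD over BALB/c -4.92 ± 0.93, against -7.21. In BALB/c 2, 87 of the remaining 188 UMIs were in 1 cell.

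In the tuft gate alone Meg3 had 0 UMIs in the 16 NOD cells, 24.1 and 18.8 CPM in BALB/c 1 and 2, and 3.36 and 3.57 CPM in B6 1 and 2. The fitted BALB/c over B6 difference was 2.54 ± 0.48 log2. Of tuft cells with Myog, 15 of 77 had Meg3 in BALB/c, against 1 of 15 in B6. Of those without Myog, 3 of 169 had it in BALB/c and 4 of 163 in B6. The NOD tuft cells were too few to place, as 0 UMIs there allow up to 7.69 CPM.

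Rian was also highest in BALB/c, with fewer UMIs. It had 3 and 0 UMIs in NOD, 119 and 161 in BALB/c and 2 and 1 in B6, a fitted difference of 5.34 ± 0.67 log2 for BALB/c over B6 and 0.71 ± 1.14 for NOD over B6. Without the muscle gate its BALB/c levels were 0.818 and 2.69 CPM, against 0.542 and 0.266 CPM in B6, a ratio from counts of 4.79 (1.49 to 24.6). Of the 24 Rian UMIs of BALB/c 2 there, 15 lay in 1 cell, a concentration that this counting interval does not cover. Mirg UMIs were 6 and 0 in NOD, 6 and 12 in BALB/c and 0 and 0 in B6, where 0 allows up to 0.401 CPM over both B6 mice.

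Dlk1 was high in both BALB/c mice and in 1 NOD mouse. It had 39 and 2 UMIs in NOD, 260 and 508 in BALB/c and 2 and 0 in B6, or 16.4 and 0.856 CPM (NOD), 40.0 and 53.4 CPM (BALB/c), and 0.538 and 0 CPM (B6). The fitted differences were 7.30 ± 1.41 log2 for BALB/c over B6, 4.97 ± 1.75 for NOD over B6 and -2.33 ± 0.89 for NOD over BALB/c. In a limma fit of sums per gate and mouse, adjusted for cell type, they were 2.14 ± 0.91, 2.57 ± 1.27 and 0.43 ± 0.91. That fit held 27 sums of 7 gates and left out the muscle gate, where only BALB/c mice had enough cells for a sum. Its NOD sums came from the collagen VI, keratinocyte, Acta2/Tagln and Aire-stage gates, of which only the Aire-stage gate had Dlk1 UMIs. The only Aire-stage sum of NOD was from NOD 1. B6 sums came from the tuft, keratinocyte, neuroendocrine and ciliated gates. Only the keratinocyte gate, with 0 Dlk1 UMIs, held sums of both, so the 2.57 for NOD over B6 compared unlike gates by way of BALB/c. The NOD over BALB/c sign turned, but over another set of cells than the epithelial sums. All 39 UMIs of NOD 1 lay in 3 cells, and 13 of them in its muscle-gate cell. Without NOD 1 the NOD over B6 difference was 1.69 ± 1.44 log2, and with HTODemux hashtag calls it was 1.90 ± 1.17. Without the muscle gate Dlk1 had 11.1 and 0.870 CPM (NOD), 15.5 and 11.9 CPM (BALB/c), and 0.542 and 0 CPM (B6), and the NOD over BALB/c difference was -1.08 ± 0.88 log2. In the tuft gate it had 14.1 and 32.7 CPM in BALB/c 1 and 2, against 0 UMIs in the 178 B6 cells. With B6 set at its floor of 3 counts the BALB/c over B6 ratio was 19.6, and its exact lower limit from counts was 15.7. Of the 87 tuft-gate Dlk1 UMIs of BALB/c 2, 52 lay in 1 cell, a concentration that this counting limit does not cover.

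**Figure D4:**
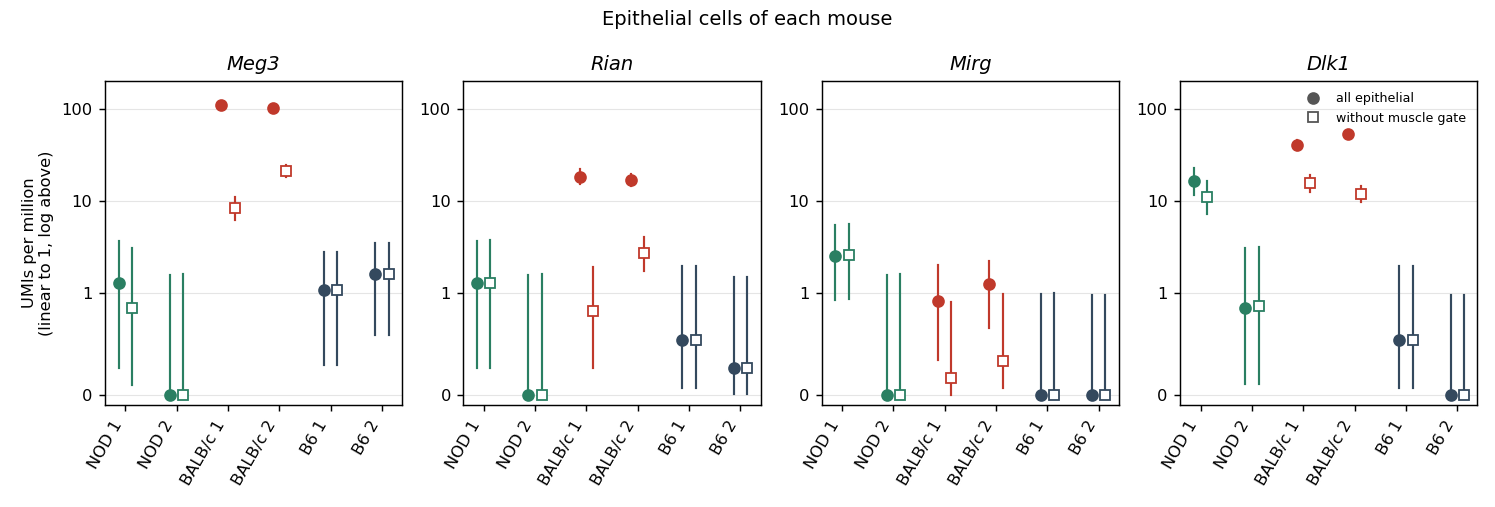
Level of each gene in the epithelial cells of each mouse, in CPM on an axis that is linear to 1 and log above, with the muscle gate included (filled circles) and left out (open squares). Lines are exact 95% counting intervals. Meg3 stands at 109 and 102 CPM in BALB/c, and at 8.34 and 21.1 CPM there without the muscle gate.

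The genes around these 4 were tested in the same edgeR fit, and each count below stands beside the share of all genes called. The sums mix cell types in unlike shares. Of the assigned cells, 178 of 456 in B6, 246 of 1007 in BALB/c and 16 of 242 in NOD were in the tuft gate. The part of that mix in the differences below was not tested. A limma fit adjusted for cell type, over 7 gates, called 334, 322 and 434 of 11219 genes. The edgeR fit called 1595, 4132 and 1343 of 15645, for BALB/c over B6, NOD over B6 and NOD over BALB/c in turn. Of the 4 other genes listed for the domain (Rtl1, Dio3, Dio3os and Begain) only Begain passed the filter, and it was not called in any contrast (log2 difference 2.53 ± 0.77 in BALB/c over B6, edgeR adjusted p = 0.0849). Of the 22 flanking genes, 1 was called higher and 1 lower in BALB/c over B6, near the 5.15% and 5.04% of all genes. In NOD over B6 2 were called higher and 1 lower (13.3% and 13.1% of all genes). In NOD over BALB/c 0 were called (3.87% higher and 4.71% lower of all genes). There 4 of the 22 were under an unadjusted p of 0.05 in edgeR, no larger a share than the 4097 of all 15645 genes. The called genes were Evl (higher in both strains than in B6), Degs2 (lower in both) and Cinp (higher in NOD). Evl, an actin regulator, had 84.7 and 93.3 CPM in BALB/c, against 25.0 and 37.2 CPM in B6, a log2 difference of 1.5 ± 0.19 (edgeR adjusted p = 0.00563). Degs2 had 8.93 and 9.04 CPM in BALB/c, against 24.2 and 36.4 CPM in B6, a log2 difference of -1.77 ± 0.38 (edgeR adjusted p = 0.0352).

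Of the 38 tested genes of other imprinted domains, 4 were called higher and 2 lower in BALB/c over B6 (5.15% and 5.04% of all genes). In NOD over B6 3 were higher and 8 lower (13.3% and 13.1% of all genes), and in NOD over BALB/c 1 and 4 (3.87% and 4.71%). The median log2 difference in BALB/c over B6 was 0.10, against 0.00 for all genes. Cd81, a tetraspanin, had the smallest adjusted p, with 231 and 207 CPM in BALB/c, against 19.6 and 32.9 CPM in B6 (log2 difference 3.03 ± 0.22, edgeR adjusted p = 0.00126). Peg13 was lower in both strains than in B6, with log2 differences of -1.75 ± 0.29 in NOD (edgeR adjusted p = 0.00591) and -1.25 ± 0.25 in BALB/c (0.0249). The other genes of the list with the smallest adjusted p were Axl, Kcnq1 and Airn. Of 8 tested genes of the imprinted gene network, a set reported to be co-expressed in growth, 0 were called higher, while 1 was called lower in BALB/c over B6, 2 in NOD over B6 and 1 in NOD over BALB/c (5.04%, 13.1% and 4.71% of all genes), among them Plagl1 and Igf2r.

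Of the 30 tested Notch pathway genes, 5 were called higher in BALB/c over B6, 6 in NOD over B6 and 1 in NOD over BALB/c, with 0 lower. Of all genes 5.15%, 13.3% and 3.87% were called higher in these contrasts. The counts in NOD over B6 and in NOD over BALB/c are thus not far from the general share. The part of the cell type mix in these counts was not tested. The median log2 differences of the Notch genes were 0.28, 0.43 and 0.02, against 0.00, -0.04 and -0.02 for all genes. Hes6, a Notch-related transcription factor, had 289 and 396 CPM in BALB/c, against 140 and 111 CPM in B6, a log2 difference of 1.43 ± 0.20 (edgeR adjusted p = 0.00797). Maml2, Adam17, Notch2 and Mfng were the other Notch genes with the smallest adjusted p. Hes6 was also highest in the muscle gate, at 1740 CPM in 43 of 43 cells, and the part of that gate's size in its difference was not tested. Of the 15 tested keepers of imprints, such as the maintenance methyltransferase Dnmt1 and its partner Uhrf1, 0 were called by edgeR in BALB/c over B6, and 2 were under an unadjusted p of 0.05. Over all 15645 genes edgeR called 1595 in that contrast, and 4169 were under an unadjusted p of 0.05. DESeq2 called 1678. In NOD over B6 4 keepers were called higher and 2 lower (13.3% and 13.1% of all genes), and in NOD over BALB/c 2 higher and 0 lower (3.87% and 4.71%), with Tet2, Dnmt3a, Uhrf1, Trim28 and Dnmt1 leading. Uhrf1, which is also a gene of dividing cells, had 36.6 and 41.1 CPM in NOD and 9.69 and 9.56 CPM in B6 (log2 difference 2.09 ± 0.44, edgeR adjusted p = 0.0174).

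Of 11 tested genes of Polycomb complex 2, a partner described for Meg3, 1 was called lower in BALB/c over B6 (5.04% of all genes), 1 higher and 4 lower in NOD over B6 (13.3% and 13.1%), and 1 lower in NOD over BALB/c (4.71%), led by Ezh2, Jarid2, Rbbp7, Ezh1 and Epop. Ezh2, its methyltransferase, had 71.2 and 71.1 CPM in NOD and 47.3 and 42.2 CPM in B6 (log2 difference 0.75 ± 0.13, edgeR adjusted p = 0.00689). Of 10 other long noncoding RNAs, 0 were called in BALB/c over B6 by edgeR and 0 were under an unadjusted p of 0.05. Of all 15645 genes 1595 were called there and 4169 were under that unadjusted p. In NOD over B6 1 was called higher and 5 lower (13.3% and 13.1% of all genes). In NOD over BALB/c 1 was called higher and 4 lower (3.87% and 4.71%). Pvt1, Malat1, Gas5, Neat1 and Xist led the list. Malat1 had 19054 and 22913 CPM in NOD and 46188 and 40186 CPM in B6 (log2 difference -0.96 ± 0.14, edgeR adjusted p = 0.00392).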

How the data were processed

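The values the authors deposited are raw UMI counts, 1 per droplet barcode for every gene and hashtag, without scaling. They were made with Cell Ranger 7.0.0 on mm10, per the submitters' processing notes, and the annotation release is not given in the sources used here. Coordinates are those of GENCODE M21, matched by gene identifier. Of 15 hashtags in the matrix, the 6 that the labels assign to mice were used and the other 9 were not. Cells were gated by 25 marker lists with Python 3.11.15, scanpy 1.11.5 and scipy 1.17.1. The 4 genes, the gene lists, the gate scoring and its thresholds were chosen with earlier results of these data known. A first gate scoring was replaced after the levels of the 4 genes had been seen, and it is kept as an alternative. Counts of epithelial cells were summed per mouse and fitted over all 6 mice with edgeR 4.0.16 (TMM, filterByExpr, robust quasi-likelihood, Benjamini-Hochberg adjustment over all genes tested) in R 4.3.3. The fit was tested on simulated data. DESeq2 1.42.0, limma 3.58.1 and HTODemux of Seurat 5.3.0 served for alternatives. Genes other than the 4 are named where called, at most 5 a list by smallest adjusted p, and the 10 most like Meg3. Replicate numbers only name the mice.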

Additional observations from a re-analysis of the deposited data

Results flagged for a closer look

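A pair of transcripts between Rian and Mirg, which no comparison used, had UMIs in the muscle gate above what a count of 0 allows. Gm37899 (chr12:109668869-109677585, mm10, plus strand) had 33 UMIs there in 9 cells and 1 elsewhere. B830012L14Rik (chr12:109695586-109702587, plus strand) had 70 UMIs in 14 muscle-gate cells, of 103 in all.

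The 920 barcodes that did not pass the filters on genes and mitochondrial UMIs held 31 Meg3 UMIs in 9 barcodes, against 2498 in the passing cells.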

How the results depend on the processing

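The direction of Meg3 in BALB/c over B6 and in NOD over BALB/c was kept in 15 of 15 alternatives, and in NOD over B6 in 14 of 15. In the tuft gate only, the log2 differences were 2.54 for BALB/c over B6 and -5.09 for NOD over B6, where both NOD mice are at 0. Without the muscle gate, an alternative chosen after seeing the data, they were 3.42 for BALB/c over B6 and -4.92 for NOD over BALB/c. Leaving out each mouse in turn gave 6.02 to 6.56 for BALB/c over B6 and -5.81 (without NOD 1) to 0.022 (without NOD 2) for NOD over B6. For NOD over BALB/c it gave -12.08 (without NOD 1) to -6.25. Without NOD 1 the remaining NOD mouse has 0 Meg3 UMIs, so the sizes of -5.81 and -12.08 are not measured levels. Where 1 mouse is left in a strain, it is assumed to vary like the others.

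Genes called numbered 1595, 4132 and 1343 in BALB/c over B6, NOD over B6 and NOD over BALB/c. With no filter on low counts they were 3354 and 3018 in BALB/c over B6 and NOD over BALB/c. With a fit adjusted for cell type they were 334, 322 and 434 over 11219 genes, where Meg3 did not pass the filter. That fit held 7 gates, without the muscle gate. In tuft cells only, 1468 were called in NOD over B6 and 190 in NOD over BALB/c. Leaving out each mouse gave 257 (without BALB/c 2) to 1881, 2297 (without B6 2) to 3236, and 167 (without BALB/c 2) to 973. The cause was not tested.

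The deviations of same-numbered mice had correlations of 0.12, 0.08 and 0.06 over the 3 pairs of strains, so the numbers were not taken as pairs. With the replicate block, 1944, 4272 and 1517 genes were called, and Meg3 differed by 6.25, -0.96 and -7.22.

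The Meg3 level in the muscle gate of BALB/c mice, 1512 CPM, was 1282 and 1742 with either BALB/c mouse alone and 1945 with the gate scoring tried first, added after seeing the data. Cell numbers limit the strain values, with 2 muscle-gate cells in NOD and 1 in B6, and 16 tuft cells in NOD.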
